A study of Mus musculus with 42 samples.

Results

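At zeitgeber time 5 (ZT 5, 5 h after lights on, the middle of the rest phase of a mouse), kidney gene expression of mice fed EpSA was compared with that of mice fed chow. EpSA is epoxystearic acid, an oxidised fatty acid that forms in heated frying oil. Both groups were male wild-type C57BL/6 mice, 6 weeks old when the diets began, kept in cycles of 12 h light and 12 h dark. Chow mice ate a standard chow for 14 weeks, and EpSA mice ate a high-fat diet with 3% EpSA for as long. The comparison covers 6 of the 42 mice of the series, 3 per diet, and 2 of 14 deposited expression columns. A column appears to hold the authors' average of the 3 mice of its diet and time, and is called a pool here. The other 12 pools, at ZT 1, 9, 13, 17, 21 and 25, show how large a diet difference, or a level in one diet, was at another hour. The EpSA diet was also a high-fat diet. Mice on high fat without EpSA were not analysed here, and the effects of fat and of EpSA therefore cannot be told apart.

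Values are in FPKM (fragments scaled to transcript length and to sequencing depth). Unless said otherwise, a difference is EpSA minus chow on log2(FPKM + 1), so a difference of 1 is close to a doubling in a well expressed gene and less than one in a gene near 1 FPKM. A pool gives no spread between mice, so the ZT 5 values have no error and no test of their own. The only test set the ZT 5 difference against the differences at the 6 other times.

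Kidney cells keep a circadian clock. The activators BMAL1 (gene Arntl), CLOCK and NPAS2 bind E-boxes and switch on the Per and Cry genes, whose proteins then inhibit the activators. REV-ERB and ROR receptors compete at RORE sites to set Arntl, and the PAR bZIP factors DBP, TEF and HLF compete with the repressor NFIL3 at D-boxes of output genes. In kidney this system times transport of salt and water along the tubule and the use of fat and glucose as fuel.

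Over the 14 pools, 13344 genes averaged 1 FPKM or more. Of these, 30 were at least 1 higher in EpSA at ZT 5 (0.225%) and 19 at least 1 lower (0.142%). After centring the difference on the median gene, 32 passed upward and 12 downward. At a difference of 0.5 there were 218 higher genes (1.63%) and 180 lower (1.35%). The median difference of all genes was -0.03, with 40.4% of genes above 0 and 59.3% below. ZT 5 was the hour at which the diets lay closest. The SD of the difference over genes was 0.205, and at the other times it was between 0.221 at ZT 17 and ZT 25 and 0.361 at ZT 21.

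**Figure D1:**
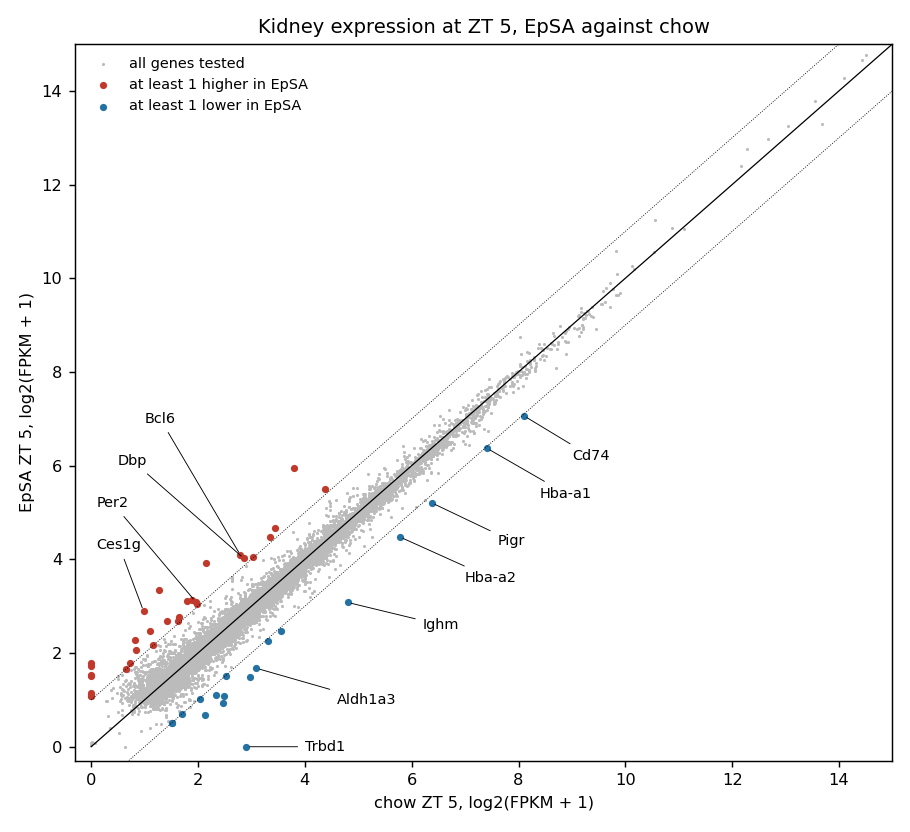
Level of each of the 13344 genes in the EpSA pool against the chow pool at ZT 5, both axes in log2(FPKM + 1), with the line of equality and dotted lines at a difference of 1. The 30 red points are genes at least 1 higher in EpSA and the 19 blue points at least 1 lower, and most red points lie at low levels.

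Much of what passed 1 upward was not messenger RNA. Of the 30 higher genes, 6 were annotated as protein coding, 7 as microRNA genes, 6 as snoRNA genes and 2 as snRNA genes. Genes with under 200 exonic bases made up 17 of the 30 (56.7%) and 226 of all genes tested (1.69%). In 7 of the 30, the chow pool was listed at 0. The differences of these short genes had an SD of 0.601, against 0.182 for genes of 200 bases or more, and between 16 and 61 of them passed 1 at each of the other times. The highest differences of all belonged to the noncoding transcripts Gm42047 at 2.15 and AC102496.1 at 2.08, which are named after their values were seen. The 19 lower genes were of another makeup, with 10 protein-coding genes, 5 immunoglobulin genes and 1 T cell receptor segment. That segment, Trbd1, had the lowest difference, -2.90, from 6.47 FPKM to a value listed at 0. It spans only 12 bases, and it was also listed at 0 in 2 of the other chow pools. Just inside the threshold lay the immunoglobulin segment Igkv6-15 at -1.01, and just outside it the segments Igkv8-30 and Ighj1, at -0.9976 and -0.9985.

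**Figure D2:**
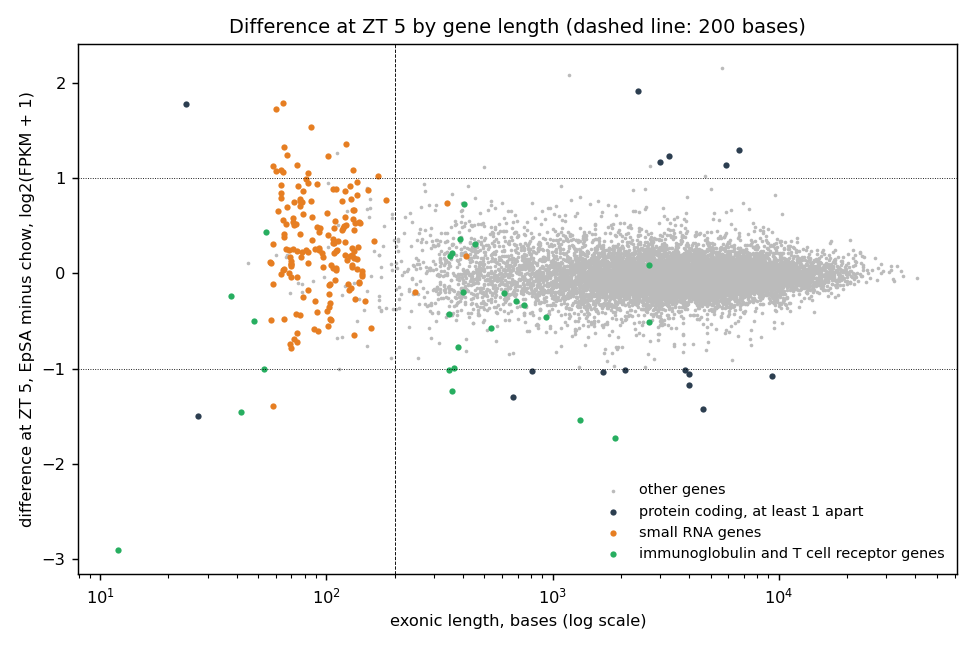
Difference at ZT 5 on log2(FPKM + 1) against exonic length in bases on a log axis, 1 point per gene with a known length. Small RNA genes (orange) lie mostly left of the dashed line at 200 bases and spread far more than longer genes, and immunoglobulin and T cell receptor genes (green) lie mostly below 0.

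At ZT 5 the EpSA pool held more RNA of several clock repressors and less of their activators than the chow pool. Of 19 listed clock genes, 18 were tested. Among them 4 were at least 0.5 higher (Dbp, Per2, Ciart, Per3) and 3 at least 0.5 lower (Npas2, Nfil3, Arntl). Over all genes tested, 1.63% were as much higher and 1.35% as much lower. Positions below are those of a GENCODE annotation of GRCm38, matched by gene identifier. Stretches near the start of 3 of the 7 are printed because each holds a known element of the clock. They come from RefSeq promoters (GRCm38.p6, 250 bases before to 50 after the start), are written 5′ to 3′ on the gene's strand, and have the motif in capitals. Capitals mark the E-box CACGTG in Ciart, the D-box TTATGTAA in Per3 and the RORE in Arntl.
Ciart, chr3:95882258-95882353, minus strand: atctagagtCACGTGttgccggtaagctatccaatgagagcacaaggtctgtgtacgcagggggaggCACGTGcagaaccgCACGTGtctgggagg
Per3, chr4:151044807-151044879, minus strand: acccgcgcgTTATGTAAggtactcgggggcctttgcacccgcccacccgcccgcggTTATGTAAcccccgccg
Arntl, chr7:113207528-113207556, plus strand: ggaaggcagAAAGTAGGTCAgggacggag
The first of 3 E-boxes lay 116 bases before the Ciart start and the first of 2 D-boxes 205 bases before the Per3 start. Arntl had 2 stretches. The RORE lay 26 bases after the start of 1 of them, and the other held none of the 3 motifs. These starts are those of RefSeq, not the GENCODE positions given for the genes. On either strand, the E-box stood in 7.15% of 32851 promoters of this length, the D-box in 0.938% and the RORE in 0.384%. The stretches of Dbp, Npas2 and Nfil3 held none of the 3 motifs in this window. A match is a description of letters, and no binding was measured. The search of the E-box and D-box in Dbp and Per2 was planned. The RORE and the other 5 genes were added after the values were seen, and Per2 is not among the 6 genes with a stretch in the table.

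Among the activators, Arntl (ENSMUSG00000055116, chr7:113207465-113314126) was at 2.71 FPKM in chow and 1.21 in EpSA at ZT 5, a difference of -0.75. Npas2 stood at 2.37 and 0.927 FPKM, a difference of -0.81. Both genes were thus at well under their chow level, while Clock, at 4.66 and 4.44 FPKM, differed by -0.06. At ZT 1, Arntl also lay below chow, by -0.58, and Npas2 by -0.43. At ZT 9 and ZT 13, Arntl differed by -0.15 and 0.05 and Npas2 by -0.08 and 0.00. Both genes are then at their trough in chow, at 0.23 to 0.49 FPKM, where log2(FPKM + 1) can show little difference. At ZT 17, 21 and 25, Arntl differed by 0.36, 0.14 and 0.05 and Npas2 by 0.12, 0.24 and -0.39.

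The repressors stood mostly above chow. Per2 (ENSMUSG00000055866, chr1:91415982-91459324) was at 2.88 FPKM in chow and 7.55 in EpSA, 2.62-fold higher and a difference of 1.14. Chow Per2 had its lowest value of the day at ZT 5, and the EpSA value lay close to the chow value at ZT 9, 8.0 FPKM. Higher Per2 was not confined to ZT 5. It was above chow at 5 of the 6 other times, by 0.29 at ZT 9 and up to 1.13 at ZT 25. Per1 and Per3 were likewise above chow at 5 of the 6, and Ciart at 3. Ciart, which encodes the clock repressor CHRONO, stood at 0.90 and 2.49 FPKM (0.88). Per3 (ENSMUSG00000028957, chr4:151003652-151044665) stood at 1.93 and 4.18 FPKM (0.82). The other repressors differed less, Cry2 by 0.30, Bhlhe40 by 0.17, Per1 by 0.15 and Cry1, the one below chow, by -0.16.

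Nuclear receptors of the clock differed little. Nr1d2, encoding REV-ERB beta, was at 18 FPKM in chow and 23.6 in EpSA (0.38). Its paralogue Nr1d1, at 17.0 and 15.4 FPKM, differed by -0.13 and Rora by -0.14.

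All 3 PAR bZIP genes were higher in EpSA and their antagonist Nfil3 was lower. Dbp (ENSMUSG00000059824, chr7:45705088-45710203) stood at 6.25 FPKM in chow and 15.2 in EpSA, 2.44-fold higher and a difference of 1.16. Tef stood at 27.6 and 39.0 FPKM (0.49) and Hlf at 15.4 and 20.6 FPKM (0.39). Nfil3 stood at 3.94 and 1.90 FPKM (-0.77), the lowest EpSA value of the day. Later in the day the signs turned: at ZT 17, Dbp differed by -1.56 and Tef by -0.43, and Nfil3 by 1.26.

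In each of the 7 clock genes at least 0.5 apart, the EpSA level at ZT 5 lay between the chow levels at ZT 5 and ZT 9, as it did in 14 of all 18 clock genes (77.8%). Among the 398 genes of any kind at least 0.5 apart, 68 did so (17.1%). The chow pool at ZT 5 enters both sides of that count, so it is a description only. A second count used the change in chow from ZT 1 to ZT 9, which does not contain this pool, although the diet difference at ZT 5 still does. The sign of the diet difference at ZT 5 equalled the sign of that change in 17 of 18 clock genes (94.4%) and in 7465 of 13284 genes (56.2%). Nr1d1 was the exception. Both measures were chosen after the values were seen. In the 12 clock output genes the signs were equal in 9 (75%), and none of the 12 passed 0.5. Usp2, a deubiquitinase, differed by 0.37, Coq10b by 0.34 and Dtx4 by -0.37.

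**Figure D3:**
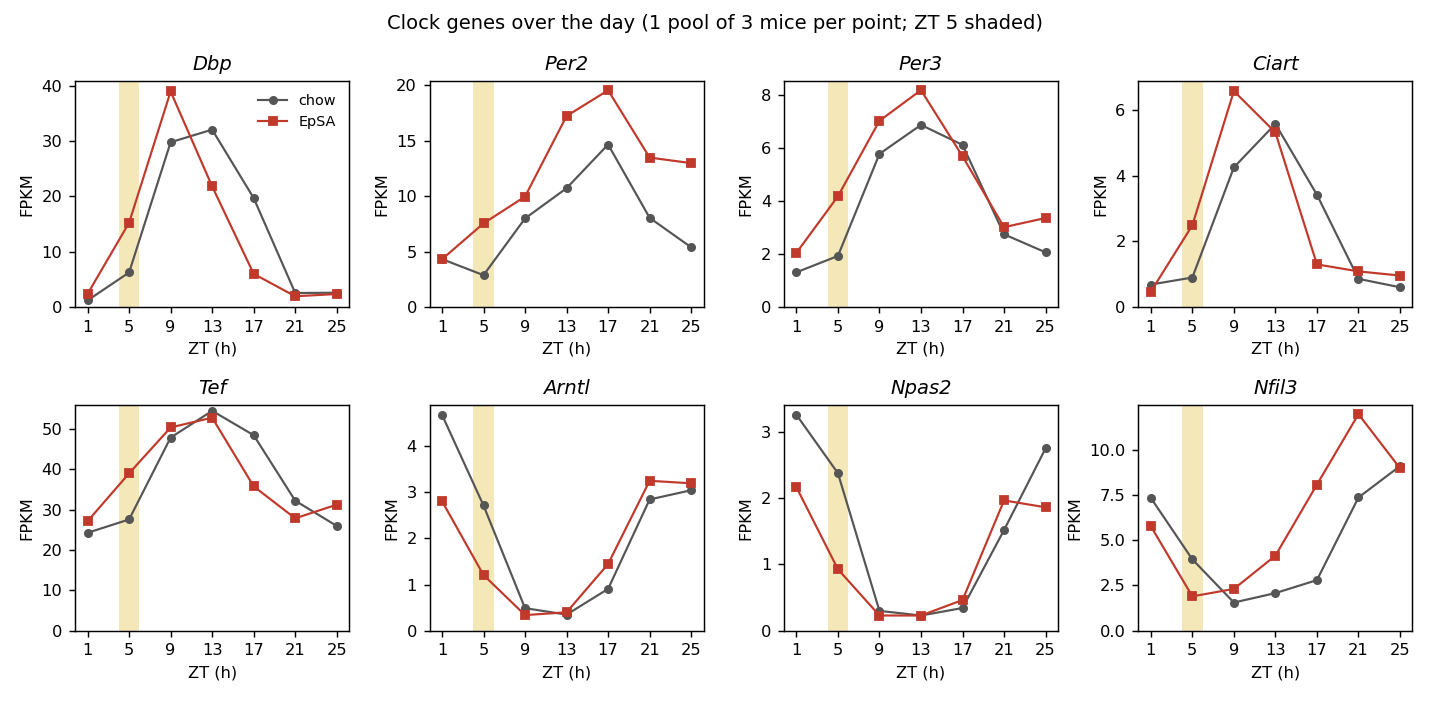
Levels in FPKM of 8 clock genes at each ZT in hours, 1 point per pool of 3 mice, chow in grey and EpSA in red, with ZT 5 shaded and no error available. At ZT 5 the EpSA points of Dbp, Per2, Per3, Ciart and Tef lie above chow and those of Arntl, Npas2 and Nfil3 below, each toward the chow point at ZT 9.

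Set against the other hours, no clock gene passed the test after adjustment. Departure here is the ZT 5 difference minus the mean difference at the other 6 times. For Dbp the departure was 1.41 ± 0.65 (SE), for Nfil3 -1.22 ± 0.48, for Npas2 -0.72 ± 0.25 and for Per2 0.62 ± 0.34. The limma test called 0 of 13344 genes (0.0%) at an adjusted p of 0.05. The lowest adjusted p was 0.832, and 159 genes had an unadjusted p under 0.05, where evenly spread p-values would give 667. The error of the test comes only from the other 6 times, each with a larger SD over genes than ZT 5. The 159 is therefore no fair comparison with chance. A difference that misses this test is not shown to be absent. With no filter on low values the test called 70 higher and 47 lower of 38370 genes. The genes that this adds all average under 1 FPKM, where values are least certain. Of the 30 higher genes, 22 were also higher on average at the other times, and of the 19 lower genes, 10 were also lower. Over all genes tested the side was shared in 65.1%. At every other time, 1 of the 30 (C030005K06Rik, named after its values were seen) was above 0 and 2 of the 19 (the alpha globin genes Hba-a1 and Hba-a2) were below 0.

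Outside the clock, an esterase and a transcriptional repressor were among the genes that led the higher side. Ces1g, a carboxylesterase that hydrolyses lipid esters and xenobiotics, stood at 0.973 FPKM in chow and 6.44 in EpSA, a difference of 1.91. Its sign was not steady over the day, with -2.04 at ZT 9, -1.38 at ZT 13 and 0.93 at ZT 1. Bcl6, a transcriptional repressor, stood at 5.94 and 16 FPKM (1.29), and its differences ran from -2.11 at ZT 21 to 1.85 at ZT 25. Other named genes on this side were R3hdml (0.91), the growth factor gene Mdk (0.80), the kinase gene Nuak2 (0.80), the steroid-metabolising Akr1c18 (0.77), Retnla (0.74) and the nuclear RNA Malat1 (0.73). Nuak2 was at 20.9 FPKM in chow at ZT 5, the lowest of the 7 chow pools, and at 37.1 in EpSA, the highest of the 7 EpSA pools.

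Fatty acid oxidation and PPARalpha target genes were split. PPARalpha is the nuclear receptor through which fatty acids switch on their own breakdown. Of 31 tested genes, 19 were above 0 and 12 below, with a median of 0.07 against -0.03 for all genes. The fatty acid hydroxylase genes Cyp4a14 (20.0 and 33.0 FPKM, 0.69) and Cyp4a10 (94.7 and 126 FPKM, 0.41), the thioesterase gene Acot3 (0.57) and the peroxisomal thiolase gene Acaa1b (0.45) were higher. Pdk4, which restrains glucose oxidation, was at 26.4 and 17.4 FPKM (-0.57), and Ucp2 differed by -0.41. Cyp4a14 was above chow at all 6 other times, by 0.02 at ZT 1 and up to 2.19 at ZT 25.

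The next list holds enzymes that make or break down oxylipins and epoxides, the class of compound to which the fed fatty acid belongs. It was split, 12 above 0 and 19 below, with a median of -0.055. This is near the split of all genes, of which 59.3% lay below 0. The Cyp4a genes Cyp4a14, Cyp4a32 (0.50) and Cyp4a10 stood above chow, and the prostaglandin D synthase gene Ptgds (2.68 and 1.52 FPKM, -0.55) below. NRF2 target genes, which answer oxidants and electrophiles, had 12 above and 12 below with a median of -0.004. Apart from Ces1g, the named members were Ugt1a6a (0.44), the exporter gene Abcc2 (0.43) and the glutathione transferase gene Gsta4 (0.35). Sterol and fatty acid synthesis genes were below chow in 25 of 33, by a median of -0.08. The median of all genes was -0.03. None of the sterol and fatty acid synthesis genes passed 0.5, and Idi1, of the cholesterol pathway, was lowest at -0.31.

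Among genes of insulin and FOXO signalling, 5 of 17 were above 0 and 12 below, where 59.3% of all genes lay below. The gluconeogenic G6pc stood at 104 and 145 FPKM (0.48), and both were below the value of every other pool of the same diet. The kinase gene Sik1 differed by 0.57, the insulin receptor substrate gene Irs2 by -0.42 and Igfbp1 by -0.37. Pck1, the other main enzyme gene of glucose output, differed by -0.18. Of 25 amino acid breakdown enzymes, Kynu (0.51) and the mitochondrial arginase gene Arg2 (-0.50) passed 0.5.

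Immune genes stood below chow in the EpSA pool, and the MHC class II and macrophage lists had the lowest medians at ZT 5 after the clock activators. In bulk kidney, fewer cells of a type and less RNA per cell cannot be told apart. All 8 MHC class II genes, which present antigen on macrophages, dendritic cells and B cells, were below chow, 7 of them by 0.5 or more, with a median of -0.74. Over all genes tested, 59.3% were below chow and 1.35% by 0.5 or more. Cd74, the invariant chain, stood at 273 FPKM in chow and 133 in EpSA (-1.03), and H2-Ab1 at 67.0 and 33.5 (-0.98). Both chow values lay within the chow range over the day, 99.0 to 796 FPKM for Cd74, while the EpSA pools of Cd74 kept between 101 and 133 FPKM. At ZT 17 and ZT 21 Cd74 differed by 0.20 and 0.09.

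All 15 tested macrophage and complement markers were below chow, 8 by 0.5 or more (1.35% of all genes), with a median of -0.54. Lyz2, the macrophage lysozyme, stood at 74.9 and 37.5 FPKM (-0.98), Tyrobp at 17.0 and 9.05 (-0.84) and C1qa, a chain of complement C1q, at 33.4 and 18.4 (-0.83). C1qc (-0.79) and C1qb (-0.77) followed. The summed level of the list was 253 FPKM in chow and 149 in EpSA at ZT 5. Chow pools at the other times summed to between 115 and 277 and EpSA pools to between 109 and 142, so the chow pool was near the top of its range and the EpSA pool was the highest of its own. The list medians at the other times ran from -1.07 at ZT 1 to 0.24 at ZT 17.

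Lymphocyte genes were also below chow, all 8 tested of 16, with a median of -0.335. The heavy chain gene Ighm lay furthest below, at 26.9 and 7.45 FPKM (-1.72), and Igkc, the kappa light chain, stood at 162 and 109 (-0.57). Ighm in chow was at its highest of the day at ZT 5, and its other chow values were between 5.80 and 20.9 FPKM. Ighg2c stood at 4.52 and 0.903 FPKM (-1.54), and the segments Igkj5 (-1.45) and Igkv10-96 (-1.23) also passed 1. Such segments share sequence with many near copies, so their separate values are uncertain. The T cell gene Trbc2 differed by -0.29, the natural killer gene Nkg7 by -0.30 and the pan-leukocyte gene Ptprc by -0.07. Pigr, the epithelial carrier of polymeric immunoglobulin, stood at 82.0 and 35.9 FPKM (-1.17) and was below chow at 5 of the 6 other times.

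MHC class I and antigen processing genes were below chow in 12 of 12, by a median of -0.24, led by H2-K1 (171 and 105 FPKM, -0.69) and B2m (703 and 481 FPKM, -0.55). The H2 genes are near copies of each other, which makes their separate values uncertain. Interferon response genes did not share this direction, with 15 above 0 and 15 below and a median of -0.01. Igtp (-0.51) and Gbp7 (-0.35) were the lowest and Ifit1 (0.41) the highest. At the other times the interferon list had medians between -1.10 at ZT 1 and 0.78 at ZT 21, so at ZT 5 its diets lay closest. Of 8 inflammation genes tested, Ccl2 differed by 0.40 and Il34 by -0.37, and Saa1 was listed at 0.

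Genes of blood and vessels were below chow as well. Of 8 red blood cell genes, 7 were below, with a median of -0.49, lower than at any other time (-0.38 to -0.15). The alpha globin genes Hba-a1 (168 and 82.0 FPKM, -1.03) and Hba-a2 (53.8 and 21.3 FPKM, -1.30) are near-identical copies whose separate values are uncertain, and Hbb-bs stood at 413 and 271 FPKM (-0.61). The list summed to 725 FPKM in chow at ZT 5, above each of the 6 other chow pools (at most 607), and to 445 in EpSA, inside the range of the other EpSA pools (325 to 450). All 12 endothelial markers were below chow, by a median of -0.22. Eng (-0.43) and Emcn (-0.33) were the lowest, and the chow sum of 210 FPKM was again above the other chow pools (at most 186). Of 7 smooth muscle and pericyte genes, 6 were below, among them Acta2 (19.1 and 13.8 FPKM, -0.43). The part that blood and vessel content of the chow pool had in the immune differences was not tested.

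RNA of other tissues was present in both pools. Fat tissue markers summed to 433 FPKM in chow and 473 in EpSA at ZT 5, both above each other pool of their diet (at most 391 and 333). Their median difference was 0.005, with 6 above 0 and 6 below: Cfd differed by 0.57, Cidea by 0.34 and Lep by -0.57. Ucp1, the uncoupling protein of brown fat, stood at 77.5 FPKM in chow and 90.0 in EpSA, and at no more than 45.0 in any other pool. Liver and muscle genes were below chow in 6 of 6, with Serpina1a at 20.9 and 11.2 FPKM (-0.84) and Ttr at 143 and 103 (-0.47). Of the adrenal genes, Star stood at 1.56 and 1.52 FPKM, Hsd3b1 and Cyp21a1 were under 0.10 FPKM in both pools, and Cyp11b1 was listed at 0. The part of such tissue in any difference was not tested.

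**Figure D4:**
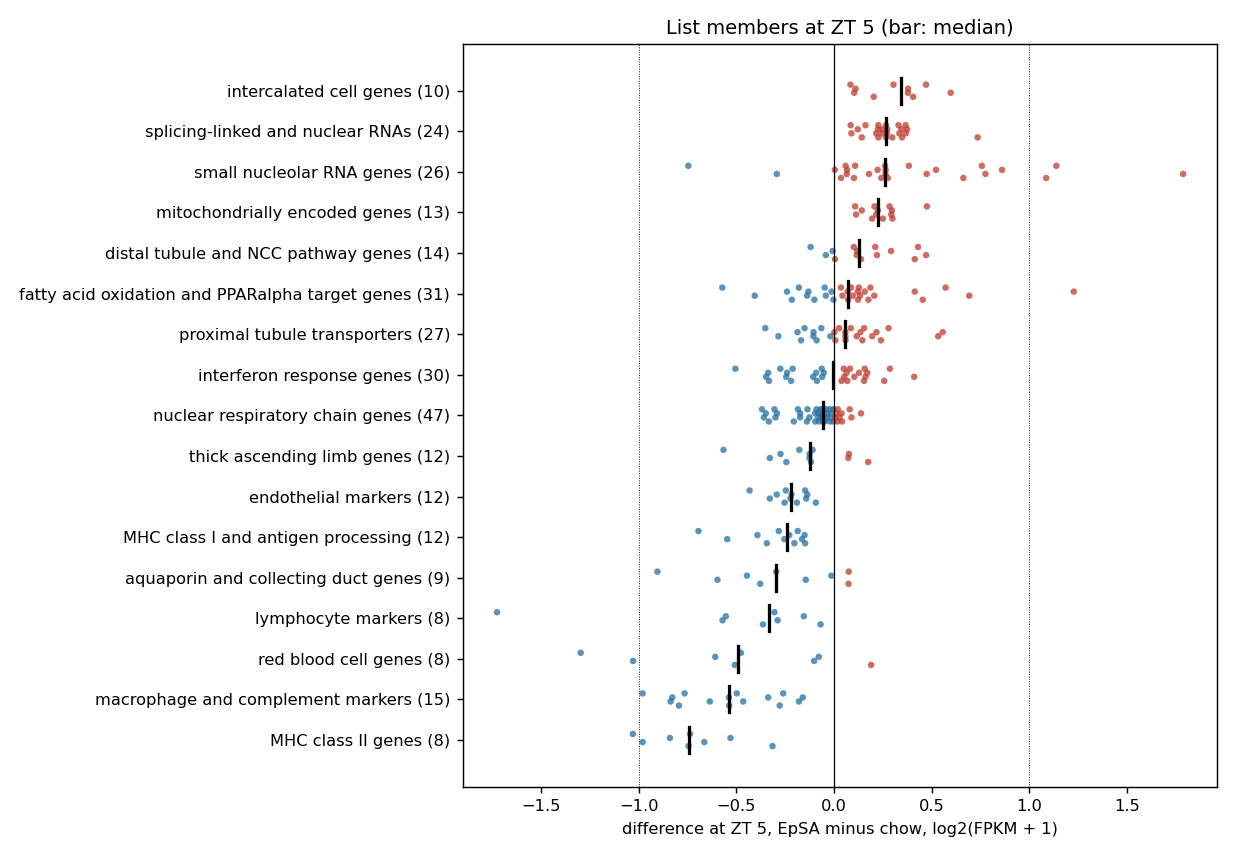
Difference at ZT 5 on log2(FPKM + 1) for every tested member of 17 gene lists, 1 point per gene, with the number tested in brackets, a black bar at the list's median and dotted lines at -1 and 1. All members of the MHC class II, macrophage, lymphocyte, MHC class I and endothelial lists lie below 0, and all members of the intercalated cell, splicing-linked and mitochondrially encoded lists above 0.

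The kidney's own segments were expressed in both pools, from podocyte Podxl (41.8 and 44.5 FPKM) to Umod of the thick ascending limb (841 and 669 FPKM). Podocyte markers were split, 3 above 0 and 5 below, with a median of -0.02, among them Cldn5 (-0.37). Of all genes, 59.3% lay below 0. Proximal tubule transporters, which reclaim most of the filtered solutes, had 17 above and 10 below. The organic anion transporter gene Slc22a19 (10.3 and 15.5 FPKM, 0.56) and the sulfate transporter gene Slc13a1 (30.6 and 44.8 FPKM, 0.53) were the highest and Slc5a8, which carries lactate, the lowest (-0.35). Tubular injury genes were split evenly, 6 and 6, with a median of 0.06. Havcr1, the injury marker KIM-1, stood at 1.10 and 2.30 FPKM (0.65), while Lcn2, the marker NGAL, differed by -0.27. Of 19 collagen and matrix genes, none passed 0.5. Ccn2 (0.36) and Ccn1 (0.34) were the highest.

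Of 12 thick ascending limb genes, 9 were below chow, with a median of -0.125, where 59.3% of all genes were below. Umod differed by -0.33 and Slc12a1, the furosemide-sensitive cotransporter, by -0.18. The list's median was below 0 at every other time too, from -0.50 at ZT 1 to -0.05 at ZT 25. In the distal convoluted tubule the direction was the other one, with 11 of 14 above chow and a median of 0.13. The calcium channel gene Trpv5 (3.72 and 5.54 FPKM, 0.47), calbindin Calb1 (56.7 and 76.7 FPKM, 0.43) and Klhl3 (0.41), which sets the stability of the WNK kinases, led, and Slc12a3, the thiazide-sensitive cotransporter, stood at 97.1 and 119 FPKM (0.29).

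Intercalated cells of the collecting duct secrete acid or base. All 10 of their genes were above chow, with a median of 0.34, while at the other times the list's median lay between -0.09 and 0.10. Pendrin, Slc26a4 (ENSMUSG00000020651, chr12:31519827-31559969), stood at 13.4 FPKM in chow and 20.7 in EpSA, 1.55-fold higher and a difference of 0.60. It was above chow at the other 6 times as well, by 0.02 to 0.19, and its departure of 0.47 ± 0.12 (SE) had an unadjusted p of 0.00444 and an adjusted p of 1.0 by limma. The exchanger gene Slc4a9 (0.47) and the proton pump genes Atp6v1g3 (0.41), Atp6v0d2 (0.38) and Atp6v1b1 (0.30) followed. Summed, the list stood at 153 FPKM in chow, below each of the other chow pools (170 to 182), and at 189 in EpSA, above each of the other EpSA pools (165 to 187).

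In a list of aquaporin and collecting duct genes, 7 of 9 were below chow, with a median of -0.30, and Aqp3 and Hsd11b2 were above it by 0.074 and 0.075. Aqp2, the vasopressin-regulated water channel, stood at 124 and 90.7 FPKM (-0.45), Aqp4 at 16.1 and 8.16 (-0.90), the transcription factor gene Elf5 at 1.62 and 0.730 (-0.60) and Fxyd4 differed by -0.38. The urea transporter gene Slc14a2 stood at 13.7 and 11 FPKM (-0.30). The 3 subunits of the epithelial sodium channel of principal cells stood above chow, Scnn1a by 0.10, Scnn1b by 0.22 and Scnn1g by 0.40, while Sgk1, the aldosterone-induced kinase, differed by -0.32. No difference between the cell types of the duct was tested. A list of 7 genes of the salty inner medulla, added after the values were seen, was below chow in 7 of 7 (median -0.37), though Nfat5, its regulator, differed by only -0.002, with Hspa1b at 13.7 and 6.89 FPKM (-0.90) and aldose reductase Akr1b3 at 15 and 9.09 (-0.67). Outside these lists, Aldh1a3, which makes retinoic acid, stood at 7.54 and 2.19 FPKM at ZT 5 (-1.42) and Muc20, a membrane mucin, at 8.89 and 3.75 (-1.06). At ZT 17, Aqp4, Aldh1a3 and Muc20 differed by 0.74, 1.63 and 0.74, and at ZT 13 by -0.61, -1.10 and -0.97. Whether the pools held unequal amounts of medulla was not tested. Urothelium genes, also a later list, had 5 above 0 and 2 below.

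Of 11 kidney hormone genes, 3 were at least 0.5 higher and none as much lower. Over all genes these shares were 1.63% and 1.35%. Ren1, renin, stood at 35.4 FPKM in chow and 55.8 in EpSA (0.64), both the highest of the day in their diet, and it was above chow at 5 of the 6 other times. Cyp27b1, which makes active vitamin D, stood at 0.680 and 2.10 FPKM (0.88), and Cyp24a1, which destroys it, at 21.0 and 32.2 (0.59). Cyp27b1 was above chow at 4 of the 6 other times. Agt, Ace, Kl and Vdr differed by less than 0.10. Glucocorticoid targets had a median of 0.02, with Dusp1 highest at 0.40, Pdk4 lowest at -0.57 and Klf9 at -0.28. Of 15 immediate early genes only Ier3 (0.55) passed 0.5.

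Mitochondrial transcripts and nuclear transcripts linked to splicing stood above chow, most of them by less than 0.5. All 13 mitochondrially encoded genes were above chow, by a median of 0.22, with mt-Nd5 at 4953 and 6887 FPKM (0.47) in the lead. The list's median was higher at ZT 9, 13 and 21 (0.37, 0.36 and 0.45). It was 0.215 at ZT 1, 0.01 at ZT 17 and -0.001 at ZT 25. The ribosomal RNA mt-Rnr2, outside that list, stood at 906 and 1535 FPKM (0.76). The 47 nuclear genes of the respiratory chain had 37 below chow and a median of -0.06, where all genes had 59.3% below and a median of -0.03. The nuclear transcripts linked to splicing were above chow in 24 of 24, by a median of 0.27. This list was drawn up with their higher level in EpSA in these data known, so its counts and signs are no independent evidence of direction. Malat1 stood at 258 and 431 FPKM, Neat1 at 90.7 and 116 (0.35), and Luc7l2, Rnpc3 and Firre each differed by 0.37. Their median was above 0 at all 6 other times, between 0.16 and 0.43. Of 86 cytosolic ribosomal protein genes, 60 were below chow (median -0.09), and of 26 snoRNA genes tested, 24 were above (median 0.26), with Snord37, Snord59a and Snora69 at 0 in chow. The 226 tested genes of any kind under 200 bases, which include snoRNA genes, had a median of 0.21. The snoRNA median is near that of short genes at large. RNA integrity is not stated in the labels, and its part in these values was not tested. Of 7 transporters that cycle over the day, 6 were below chow, with the monocarboxylate carrier Slc16a1 at 19.7 and 13.8 FPKM (-0.48). Of 10 cell cycle genes, 4 were above 0 and 6 below, and none passed 0.5. Heat shock and cold-inducible genes were mixed, 9 above 0 and 7 below. Hspa1b (-0.90) and Hspa1a (-0.63) were the lowest and the cold-induced Rbm3 (0.40) the highest, with Cirbp at -0.35. Of 24 genes of protein folding in the endoplasmic reticulum, Creld2 was highest at 0.39.

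**Figure D5:**
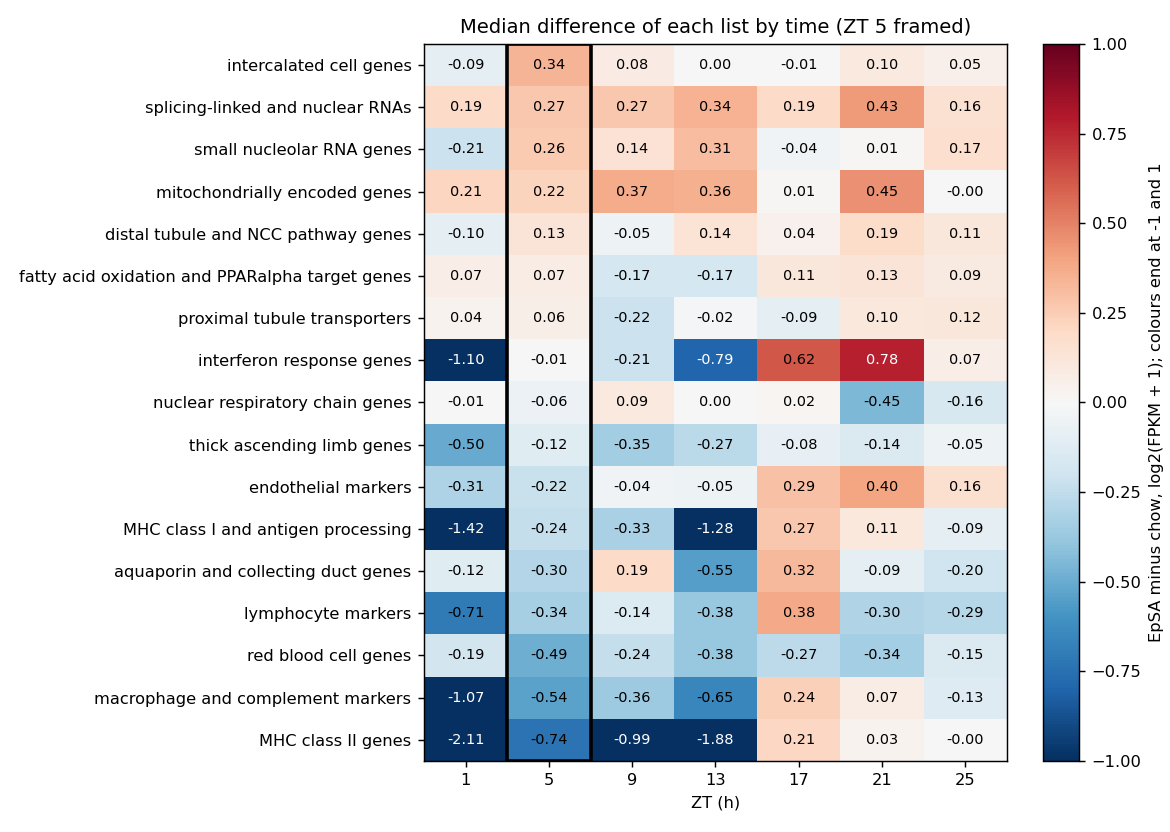
Median difference on log2(FPKM + 1) of 17 gene lists at each ZT in hours, with ZT 5 framed and red for higher and blue for lower in EpSA. At ZT 5 the MHC class II median is -0.74, between -2.11 at ZT 1 and 0.21 at ZT 17, while the intercalated cell median of 0.34 is the highest of its row.

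Apart from 2 lists added after the values were seen, 46 lists were examined. Of the 46, 6 had a median of at least 0.2 and 10 one of -0.2 or less, and 8 held a gene past 1. The 2 added lists had medians of -0.37 (inner medulla) and 0.10 (urothelium). Of the 14 pools, chow at ZT 5 had the lowest column sum. The pools held between 27796 and 29783 genes above 0, with 29444 in chow and 29618 in EpSA at ZT 5. The number of reads behind a pool is unknown.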

How the data were processed

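Total RNA of mouse kidney was made into libraries from 1 µg and sequenced as paired reads of 150 bases on an Illumina NovaSeq, per the labels' protocols. Aligner, counter, build and versions are not given in the sources used here. For each diet the authors deposited a table of 56691 genes with 7 columns of expression. The deposited values are read as FPKM, which the headers do not name, and each column as the authors' mean of 3 mice, since 100.0% of nonzero values end in 0, 3 or 7 thousandths. The EpSA table carries another abbreviation and was matched through the sample descriptions. A GENCODE annotation of GRCm38 gave symbols for 52073 identifiers and none for 4618.

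Genes averaging 1 FPKM or more over the pools were compared on log2(FPKM + 1), with a pseudocount of 1, which understates differences of low genes. Departure from the other times was tested two-sided with limma 3.58.1 in R 4.3.3 on the 14 pools (time, diet, and diet at ZT 5, with 5 residual degrees of freedom), adjusted by Benjamini-Hochberg over 13344 genes. Its error is the spread between times, not between mice. On simulated data, in which a gene's spread was the same at every time, it missed most small differences and some large ones. A lack of calls therefore does not show a lack of difference. Python 3.11.15 with pandas 2.3.3 served for the rest.

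Named genes are the 15 highest and 15 lowest at ZT 5 without model-number genes, pseudogenes and small RNAs, all clock genes, and up to 5 members per list with an absolute difference of at least 0.3. Some genes that this rule selects are left out of the text. Others given within a list were added after their values were seen. The comparison and all lists were chosen with earlier results of these data known. Alternatives covered pseudocount, filter, scaling, threshold, variance trend and single times or members left out.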

Additional observations from a re-analysis of the deposited data

Results flagged for a closer look

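The median difference of the 8 podocyte markers was -0.023 at ZT 5, on the other side of 0 from all 6 other times, at which it lay between 0.063 at ZT 1 and 0.433 at ZT 21. The difference between the times was not tested. The summed level of these markers at ZT 5 was 91.6 FPKM in chow, above the 60.6 to 69.1 of the other chow pools, and 89.9 in EpSA, inside the 73.2 to 94.3 of the other EpSA pools. It was thus the chow pool that stood apart at this hour.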

How the results depend on the processing

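The 30 higher and 19 lower genes were counts near a threshold. They became 106 and 53 with a pseudocount of 0.1, 3 and 5 with a pseudocount of 5, 12 and 8 at a mean of at least 5 FPKM, 55 and 39 with no filter, and 218 and 180 at a threshold of 0.5. With the median difference of all genes set to 0 the lower count was 12, and higher genes made up 72.7% of the calls in place of 61.2%. The departure test called 0 genes under every alternative but one, each other time left out included (0 to 0). The exception was no filter, which adds genes averaging under 1 FPKM and called 70 higher and 47 lower. The median was -0.313 for clock activators and -0.369 for red blood cell genes with a pseudocount of 5, and 0.655 for clock repressors at a mean of at least 5 FPKM, which leaves fewer genes. Of 290 recomputed list medians, 285 moved by less than the SD of that median over the 7 times, and 13 turned sign, none of a main median beyond 0.101. Of 1123 recomputed values of named genes, 2 turned sign, none beyond 0.019. No paired analysis was possible because the columns are means that carry no replicate number. With no counts, depth and counting error are unknown, and low and short genes are the least certain.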
